A study of Mus musculus with 12 samples.

Results

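Chromatin accessibility was measured by ATAC-seq, in which a transposase cuts open DNA, along the stretch of mouse chromosome 15 that runs from the Myc gene across its downstream gene desert to the distal blood enhancer cluster. Every open chromatin region of the deposited table lying in chr15:61950000-63800000 (GRCm38) was taken, which gave 67 of 121336 regions, and 67 of the 4958 on chromosome 15. Sorted mouse bone marrow cells were compared: LSK cells, which are Lin- Sca-1+ c-Kit+ and hold the stem cells and multipotent progenitors, and GMP, the granulocyte-monocyte progenitors, sorted as Lin- Sca-1- c-Kit+ CD16/32+. The mice were young adult littermates on the C57BL/6 background, either wild type (WT) or UREd/d (called URE), which carry a germline deletion of the upstream regulatory element of Spi1. Each genotype had 3 libraries per cell type, called WT-LSK and URE-LSK or, for the progenitors, WT-GMP and URE-GMP, and the study's methods give 3 mice per genotype and cell type. The deletion is carried by every cell of the URE mice, so effects within a cell and effects of an altered population of sorted cells cannot be told apart, nor can fewer open cells and less open DNA per cell.

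Myc encodes a basic helix-loop-helix transcription factor that pairs with MAX at E-box DNA and drives ribosome production, metabolism and division. Its gene is followed by Pvt1, a long non-coding RNA gene whose introns hold enhancers, and then by a long desert poor in protein-coding genes. At the far end of this desert lies a cluster of enhancers, known as the blood enhancer cluster, which contacts the Myc promoter and is needed for Myc expression in hematopoietic stem and progenitor cells, each element being used to a different degree in different blood cells. PU.1, the product of Spi1, is an ETS family factor that opens enhancers of myeloid genes, and RUNX1 and C/EBP factors are among its partners.

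Total counts per library ranged from 23072701 to 62204826, and the window held between 0.0481% and 0.0556% of them. The targeted element was checked first. Of the 5 regions that lie 12 to 17 kb upstream of the Spi1 start codon, the 3 bounded by chr2:91080885-91083700 held 115 to 2110 counts in the WT libraries and 0 to 6 counts in the URE libraries, as the labels give it. The other 2, at chr2:91084159-91084378 and chr2:91084522-91084842, held 33 to 597 counts in the WT libraries and 35 to 208 in the URE libraries. Levels are given as CPM, counts relative to TMM-scaled library sizes, and 3 counts corresponded to between 0.0520 and 0.126 CPM in a library. Libraries of 1 group correlated at r = 0.953 to 0.988 over all regions (log2 CPM, which share depth and region set) and libraries of different groups at 0.585 to 0.870. The summed level at 7 of 8 granulocyte-monocyte marker genes with a region was 117 to 124 CPM in WT-LSK, 383 to 509 CPM in WT-GMP and 628 to 666 CPM in URE-GMP, without overlap between the GMP groups. Of these genes Mpo (means of 195 and 340 CPM) and Ctsg (48.4 and 105 CPM) made up most of the gap between WT-GMP and URE-GMP, Csf1r (45.6 and 34.1 CPM) and Ms4a3 (14.2 and 10.1 CPM) were lower in URE-GMP, and 1 of the 7 was called. Within URE-LSK the sum was 106, 104 and 143 CPM, so that replicate 3 held the highest of the 6 LSK libraries. For 7 of 8 stem and progenitor genes the sums were 304 to 314 (WT) and 317 to 358 CPM (URE) in LSK. They were 240 to 282 (WT) and 253 to 263 CPM (URE) in GMP. Other lineages also differed by genotype: B cell genes summed to 49.6 to 56.1 CPM in WT-LSK and 68.1 to 70.3 CPM in URE-LSK, and to 69.6 to 78.6 and 91.1 to 99.4 CPM in the GMP groups. T cell genes (23.1 to 28.1 against 30.7 to 33.1 CPM), erythroid genes (60.8 to 63.6 against 68.5 to 75.2 CPM) and megakaryocyte genes (72.1 to 91.2 against 99.8 to 111 CPM) likewise had their higher sums in the URE libraries of LSK, without overlap. No marker region was at 0 in a whole group. The part of these differences in the results was not tested.

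Regions are named by the distance of their centre from the annotated Myc start site at position 61985391 on the plus strand, so the +1663 kb region lies 1663 kb downstream. Stretches of 200 bases of 5 regions are shown because these regions carry the contrast described further on: the first 4 lost accessibility in URE cells in both cell types, and the last is one of the 3 tallest distal regions, which were not called. All are from the plus strand of GRCm38, 5′ to 3′. Capitals mark the core GAGGAA of PU.1 sites, and the RUNX motif AACCACA, each on either strand. Each stretch was placed around the match that took in the most matches, with full PU.1 motifs counted again. A region without a match could not be shown. That matches stand in the stretches thus follows from this choice and is not a result. They lie at chr15:62002958-62003157 for +18 kb, chr15:63616946-63617145 for +1632 kb, chr15:63665668-63665867 for +1680 kb, chr15:63678934-63679133 for +1694 kb and chr15:63658549-63658748 for +1673 kb.
+18 kb: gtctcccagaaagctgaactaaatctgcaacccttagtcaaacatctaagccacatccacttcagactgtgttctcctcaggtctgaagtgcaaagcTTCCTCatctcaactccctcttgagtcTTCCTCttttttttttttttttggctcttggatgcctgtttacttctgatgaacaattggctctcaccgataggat
+1632 kb: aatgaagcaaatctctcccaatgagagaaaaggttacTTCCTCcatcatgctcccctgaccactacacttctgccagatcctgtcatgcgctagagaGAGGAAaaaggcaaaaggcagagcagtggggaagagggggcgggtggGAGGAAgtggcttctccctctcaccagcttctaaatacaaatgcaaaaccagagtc
+1680 kb: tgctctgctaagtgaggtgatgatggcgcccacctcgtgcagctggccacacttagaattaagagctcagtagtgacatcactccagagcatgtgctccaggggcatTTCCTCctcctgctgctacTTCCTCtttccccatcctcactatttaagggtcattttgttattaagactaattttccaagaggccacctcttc
+1694 kb: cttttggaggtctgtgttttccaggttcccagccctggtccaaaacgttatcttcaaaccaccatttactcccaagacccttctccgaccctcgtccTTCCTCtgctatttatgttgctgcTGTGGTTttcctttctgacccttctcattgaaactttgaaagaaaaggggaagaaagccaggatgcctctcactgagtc
+1673 kb: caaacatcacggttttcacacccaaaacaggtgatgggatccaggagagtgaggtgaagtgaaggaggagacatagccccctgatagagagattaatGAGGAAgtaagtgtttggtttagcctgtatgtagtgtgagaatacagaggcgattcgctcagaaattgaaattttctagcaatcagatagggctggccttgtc

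Accessibility was concentrated at the 2 ends of the window. The 3 regions at Myc itself and the 21 regions beyond 1.6 Mb held most of the signal in every group, while the 20 regions of Pvt1 and the other 23 regions, in the desert, were low. In WT-LSK the 3 Myc regions summed to 134 ± 5.5 CPM, those of Pvt1 to 79.2 ± 3.8 CPM, those of the desert to 33.0 ± 1.1 CPM and the distal ones to 214 ± 9.1 CPM (mean ± SD of 3 libraries). Only 8 of the 67 regions had a mean of at least 10 CPM over the 4 groups, and 29 had less than 2 CPM; the median region held 3.20 CPM, against 2.91 CPM over all regions. Members were 203 to 1791 bp long with a median of 374 bp, and their GC content had a median of 46.4%, against 49.8% over all regions. The longest stretches without an open region ran for 264 kb between +1021 and +1285 kb, 237 kb between +472 and +709 kb and 226.5 kb between +1285 and +1512 kb. No region of the table lay upstream of the -2 kb region within the window.

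**Figure D1:**
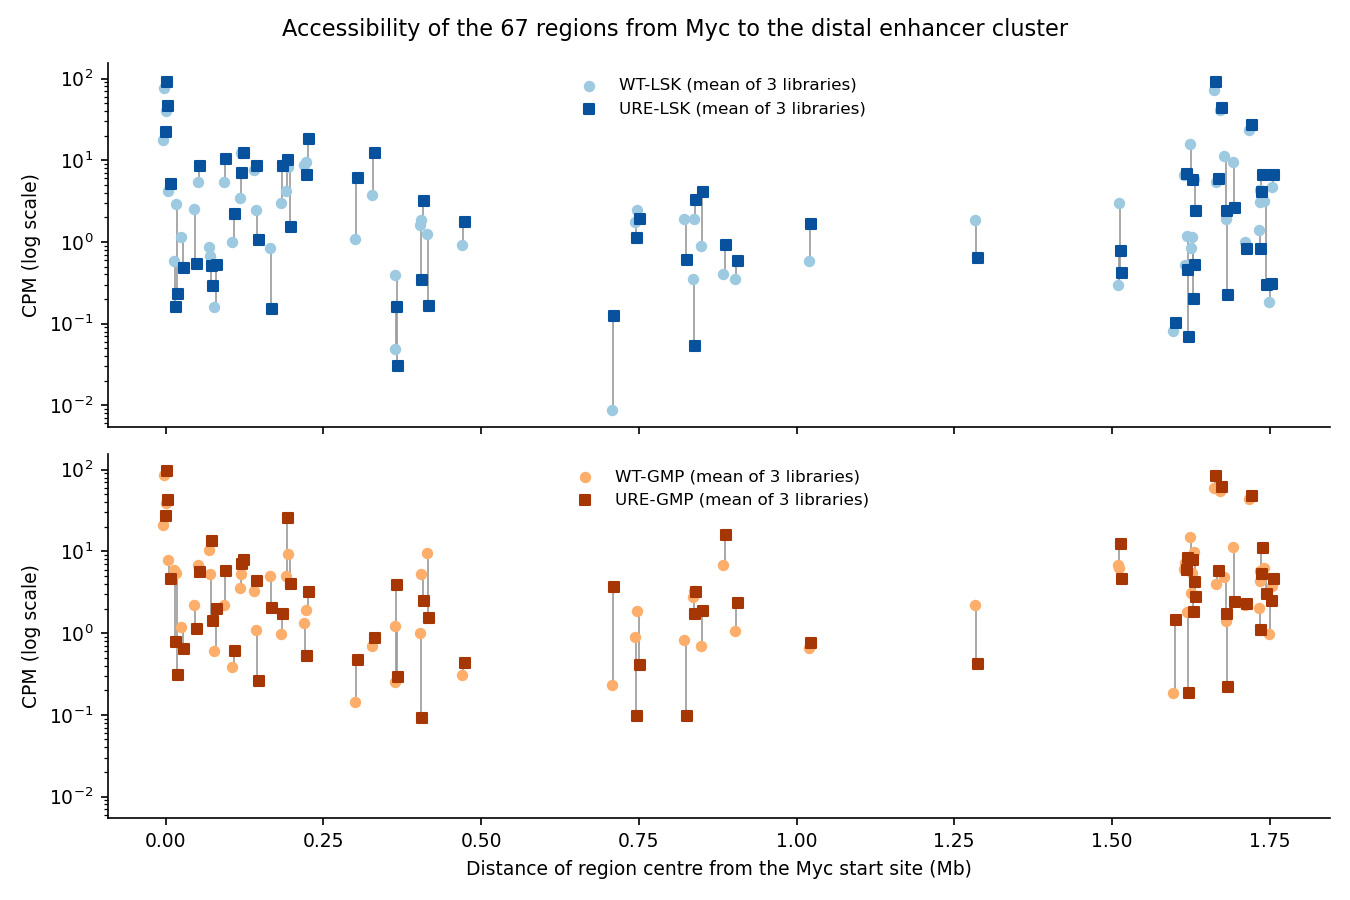
Mean CPM (log scale) of the 67 regions against the distance of the region centre from the Myc start site in Mb, for LSK (top) and GMP (bottom), with WT as circles, URE as squares and a line joining the 2 genotypes of 1 region. The tallest regions lie at Myc and in the distal cluster, and long lines, where the genotypes differ most in ratio, belong to regions of low level.

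Per length, the Myc promoter and the 2 tallest distal regions were alike in level. The promoter region (+0 kb, 1760 bp, over the start site and first exon) averaged 49.9 CPM per kb over the 4 groups, the +1663 kb region (1556 bp) 49.2 CPM per kb and the +1673 kb region (1060 bp) 47.4 CPM per kb. The +1720 kb region (905 bp) came after the -2 kb region (508 bp, 43.4 CPM per kb) with 38.9 CPM per kb, and the body of Myc (+2 kb, 1791 bp) had 23.5 CPM per kb. All 3 distal regions lie in introns of Gm41335, a long non-coding RNA gene on the minus strand. It starts at position 63718289, between +1720 and +1735 kb, and holds 15 of the 21 regions of the cluster.

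The Myc promoter (+0 kb, chr15:61984183-61985942) was open in all 12 libraries and was not called in any comparison. A call needed both an adjusted p under 0.05 and an absolute log2 fold change over 1 in edgeR's quasi-likelihood test, adjusted by Benjamini-Hochberg over all 121336 regions. It held 77.3, 79.1 and 72.2 CPM across WT-LSK and 96.2, 89.1 and 89.0 CPM across URE-LSK. In GMP it held 87.4, 80.8 and 90.5 CPM in WT and 93.6, 98.6 and 99.5 CPM in URE. URE libraries were above the WT libraries of the same cell type without overlap. The log2 fold change was 0.26 ± 0.07 (SE) in LSK (edgeR adjusted p = 0.00331). For GMP it was 0.17 ± 0.07 (edgeR adjusted p = 0.0349), and the 22920 promoter regions had medians of 0.21 and 0.15 in the same contrasts. The direction rests on the scaling: with loess offsets against abundance the values were -0.06 in LSK and -0.08 in GMP (adjusted p = 0.327 and 0.157). From LSK to GMP it changed by 0.18 ± 0.07 in WT (adjusted p = 0.0312) and by 0.09 ± 0.07 in URE (adjusted p = 0.253), and the genotype effects in the 2 cell types differed by -0.09 ± 0.09 (adjusted p = 0.568).

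The 2 other regions at Myc were not called either. The -2 kb region, 11 bp from a start site of the gene model Gm37947, averaged 17.8 ± 1.3 (WT) and 22.3 ± 2.3 CPM (URE) across LSK and 21.1 ± 1.4 (WT) and 26.9 ± 1.2 CPM (URE) across GMP, a log2 fold change of 0.33 in LSK and 0.35 in GMP, more than at the promoter. It is the only one of the 67 regions with a match to the CTCF motif, the mark of insulator sites. The +2 kb region, in the Myc gene body, averaged 40.2 ± 2.0, 46.6 ± 1.2, 39.5 ± 1.0 and 42.2 ± 2.4 CPM in the same order, and its log2 fold change of 0.10 in GMP turned to -0.02 with library sizes alone. The 5 comparisons called neither.

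Elsewhere in the window the genotypes differed widely. In LSK, 11 of the 67 regions rose in URE and 23 fell, against calls for 13.6% (higher) and 23.9% (lower) of all regions. In GMP, 11 rose and 21 fell, against 15.6% and 24.1% of all regions. Of the marker sums given above, those of B cell and T cell genes differed between the genotypes without overlap in both cell types. Granulocyte-monocyte sums did so in GMP only, and stem and progenitor, erythroid and megakaryocyte sums in LSK only. The part of such differences in these calls was not tested. As shares of the members these were 16.4% higher and 34.3% lower in LSK, and 16.4% higher and 31.3% lower in GMP, and the median log2 fold change of the members was 0.07 and 0.04, against 0.14 and 0.06 over all regions. Of the 67, 16 fell in both cell types, 6 rose in both, 0 were called in opposite directions and 23 were called in neither. No share of all regions was taken for these joint calls, so whether they are particular to the window was not tested. The split between directions depended on the scaling in LSK, where loess offsets gave 21 higher and 15 lower and GC content offsets 20 and 16. In GMP both gave 15 higher and 18 lower. Other scalings moved the median of all regions in LSK between -0.02 (TMM on promoter regions) and 0.28 (loess and GC content offsets), from 0.14. Calls also followed level: of the members under 2 CPM, 19 of 29 were called in LSK, against 55.2% of all regions at that level, and of those of at least 10 CPM, 2 of 8, against 10.4%.

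**Figure D2:**
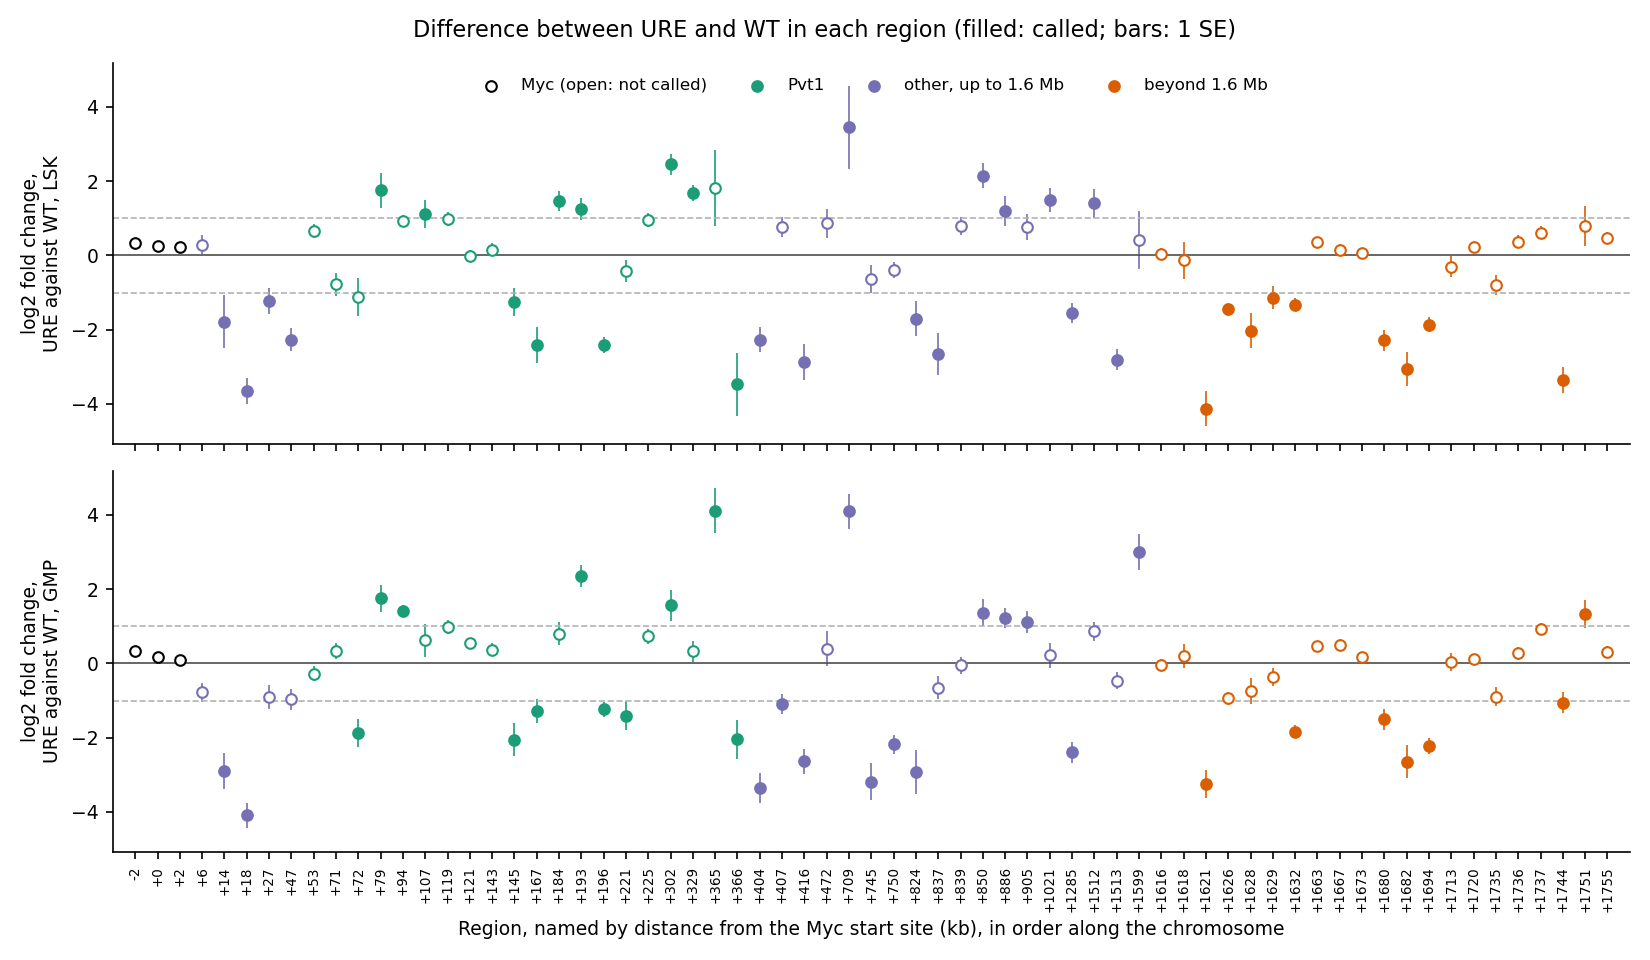
Log2 fold change of URE against WT in LSK (top) and GMP (bottom) for the 67 regions in their order along the chromosome, coloured by band; filled points were called, bars are 1 SE and dashed lines mark a log2 fold change of 1. The Myc regions lie close to 0 in both panels, filled points of the regions beyond 1.6 Mb lie below 0 with 1 exception in GMP, and Pvt1 has filled points on both sides.

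In the distal cluster the 3 tallest regions were not called and a set of weaker ones lost accessibility. Of its 21 regions 0 rose and 9 fell in LSK, and 1 rose and 6 fell in GMP, with median log2 fold changes of -0.30 and -0.04. The shares that fell were 42.9% in LSK, against 23.9% of all regions, and 28.6% in GMP, near the 24.1% of all regions. All 6 that fell in GMP also fell in LSK. The count of those that fell in LSK was 6 with GC content offsets and 8 with loess offsets, with 1 higher in both, and in GMP 5 fell under either.

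The +1663 kb region, the tallest of the cluster, held 66.7, 73.9 and 73.9 CPM across WT-LSK and 95.1, 92.6 and 86.4 CPM across URE-LSK. In GMP it held 54.9, 58.3 and 66.4 CPM in WT and 79.5, 78.7 and 91.8 CPM in URE. The URE libraries were higher without overlap in both cell types. Its log2 fold change was 0.35 ± 0.08 in LSK (edgeR adjusted p = 0.0021). In GMP it reached 0.48 ± 0.08 (edgeR adjusted p = 0.000165), below the fold required for a call. Across scalings it ran from 0.05 with loess offsets (adjusted p = 0.592) to 0.75 with GC content offsets in LSK, and from 0.23 to 0.81 in GMP.

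At +1673 kb the libraries held 37.2, 45.0 and 41.1 CPM across WT-LSK, 42.5, 39.3 and 47.4 across URE-LSK, 56.2, 51.2 and 56.5 across WT-GMP and 57.7, 58.7 and 69.8 across URE-GMP. The genotypes overlapped in LSK, with a log2 fold change of 0.07 ± 0.10 (edgeR adjusted p = 0.561) that was -0.16 with loess offsets, and in GMP it was 0.18 ± 0.10 (adjusted p = 0.115). At +1720 kb the levels were 24.1, 23 and 23 CPM across WT-LSK, 29.7, 23.3 and 28.5 across URE-LSK, 47.3, 41.6 and 40.8 across WT-GMP and 45.9, 49.8 and 45.7 across URE-GMP. Here the genotypes overlapped in both cell types (log2 fold changes 0.22 ± 0.10 and 0.13 ± 0.10, the latter -0.04 with loess offsets), while every GMP library lay above every LSK library. GC content offsets gave larger values for both regions, 0.47 and 0.52 at +1673 kb and 0.77 and 0.70 at +1720 kb, still under the fold required.

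Of the regions that lost accessibility, +1626 kb was the tallest, with 15, 17.1 and 15.5 CPM across WT-LSK and 5.42, 4.94 and 6.98 CPM across URE-LSK. Its log2 fold change was -1.45 ± 0.18 in LSK (edgeR adjusted p = 4.06e-06), or -0.97 and no longer a call with GC content offsets. In GMP it had 14, 14.9 and 16.5 CPM in WT and 6.87, 10.1 and 6.71 CPM in URE, also without overlap, at -0.94 ± 0.17, just short of a call. The +1694 kb region went from 9.55, 9.95 and 8.71 CPM across WT-LSK to 2.17, 3.07 and 2.52 CPM across URE-LSK, and from 10.7, 10.8 and 12.4 CPM across WT-GMP to 2.54, 3.0 and 1.62 CPM across URE-GMP. Both falls passed the test, at -1.86 ± 0.21 in LSK (edgeR adjusted p = 1.79e-06) and, among GMP, -2.23 ± 0.21 (adjusted p = 4.54e-07). Similarly, +1680 kb held 9.18, 11.2 and 13.9 CPM across WT-LSK, 1.67, 3.71 and 1.71 across URE-LSK, 4.6, 5.14 and 4.77 across WT-GMP and 1.70, 2.06 and 1.31 across URE-GMP. It fell by 2.29 in LSK and by 1.51 in GMP on the log2 scale, and of the distal regions it was the only one that also fell from LSK to GMP in WT, by 1.24.

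At +1632 kb, where 3 cores and 2 full PU.1 motifs lie within the 200 bases shown, the level was 6.19, 5.30 and 6.39 CPM across WT-LSK against 2.57, 2.23 and 2.33 across URE-LSK, and 10.2, 9.90 and 9.33 across WT-GMP against 3.14, 2.60 and 2.50 across URE-GMP. The log2 fold changes were -1.33 ± 0.17 and -1.84 ± 0.17 (edgeR adjusted p = 6.01e-06 and 3.17e-07), and the first was -0.88 with GC content offsets, under the fold required. The remaining regions that fell were weak. At +1621 kb the counts fell from 28 to 53 per library in WT-LSK to 1 to 4 in URE-LSK (log2 fold change -4.13) and from 33 to 97 in WT-GMP to 6 to 16 in URE-GMP (-3.24). The +1682 kb region fell by 3.05 and 2.64 on the log2 scale, and +1628 and +1629 kb fell in LSK only as calls, by 2.02 and 1.13, without a called interaction (adjusted p = 0.151 and 0.206). The +1629 kb call did not hold with GC content offsets (-0.61, adjusted p = 0.0683) or loess offsets (-0.83). In the other direction, +1751 kb rose in GMP from 0.84, 0.94 and 1.11 CPM to 2.13, 2.36 and 2.83 CPM (1.33 ± 0.37, adjusted p = 0.00594).

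**Figure D3:**
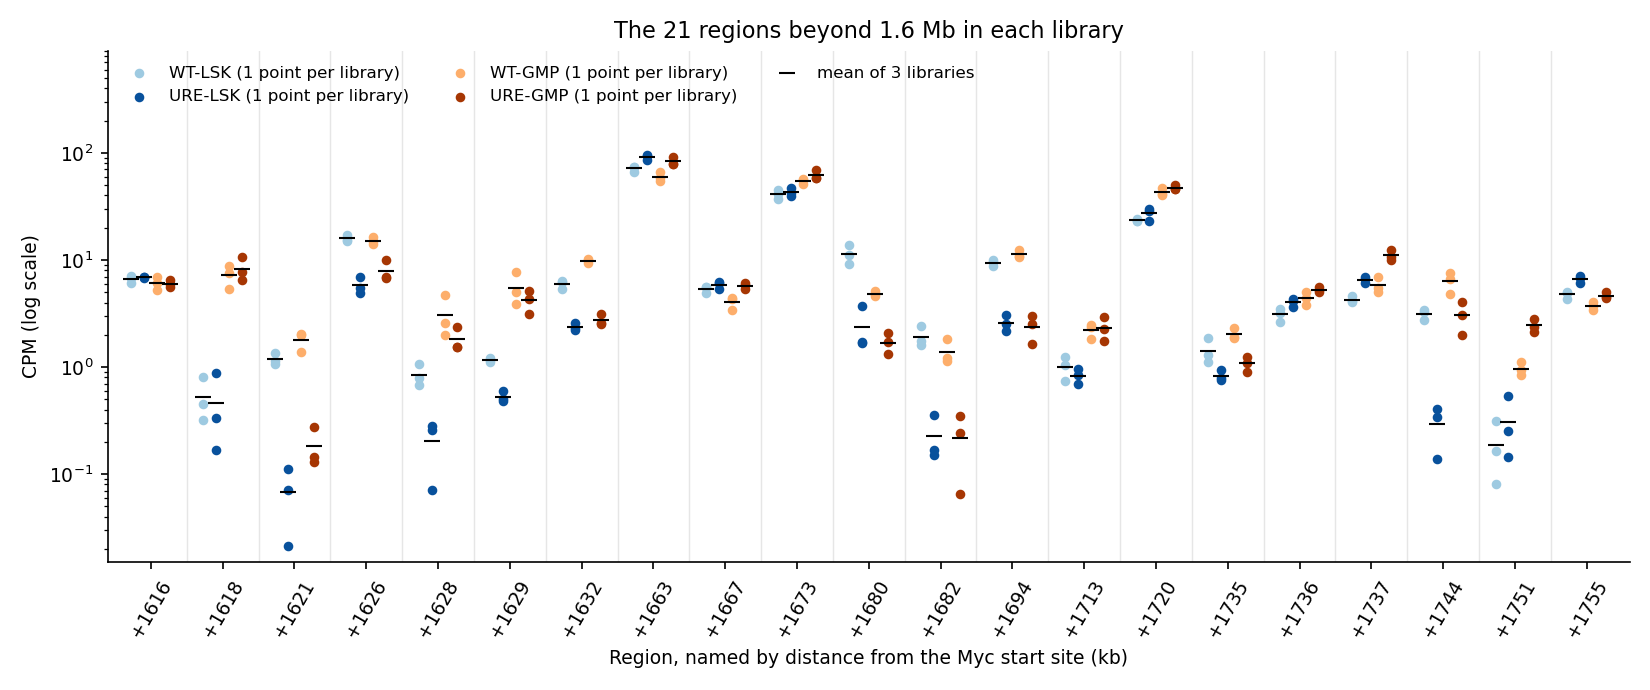
CPM (log scale) of the 21 regions beyond 1.6 Mb in each of the 12 libraries, 1 point per library coloured by group, with a black line at each group's mean. The regions at +1663, +1673 and +1720 kb stand above 20 CPM in every library. At +1621, +1626, +1632, +1680, +1682 and +1694 kb every library of both URE groups lies below every library of both WT groups.

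Summed, the distal cluster kept a similar total with the scaling and the cluster start used here, while the sum of its weaker regions was lower in URE. All 21 regions held 214 ± 9.1 (WT) and 208 ± 6.3 CPM (URE) across LSK. They held 254 ± 5.9 (WT) and 263 ± 9.99 CPM (URE) across GMP, and the ranges overlapped in both cell types. A later start of the cluster kept the 14 regions from +1663 kb on. LSK ranges then still overlapped, at 171 to 187 (WT) and 186 to 198 CPM (URE). GMP ranges did not, at 199 to 212 (WT) and 223 to 246 CPM (URE). The similar total in GMP thus rested on the start chosen. The regions left out include +1621, +1626, +1628, +1629 and +1632 kb, which fell in LSK. The 3 tallest regions, named by the rule of highest mean level, went from 136 ± 7.2 to 162 ± 6.1 CPM among LSK libraries and from 158 ± 6.3 to 193 ± 12.9 CPM among GMP libraries. The other 18 went from 78.2 ± 2.3 to 46.8 ± 0.5 CPM among LSK libraries and from 95.7 ± 1.2 to 70.9 ± 6.3 CPM among GMP libraries. These were ratios of URE to WT of 1.19 and 1.22 for the tallest regions and of 0.599 and 0.741 for the others, and no library of one genotype reached those of the other in any of the 4 pairs. Sums over members get no test. With library sizes alone the sums of the tallest were 145 and 159 CPM in LSK and 161 and 180 CPM in GMP, and those of the others 83.4 and 46.0, and 97.4 and 66.4, in the same directions. With loess offsets the rise of the tallest regions was not seen in LSK, where +1663, +1673 and +1720 kb had 0.05, -0.16 and 0.04, and in GMP they had 0.23, -0.02 and -0.04, on the log2 scale.

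**Figure D4:**
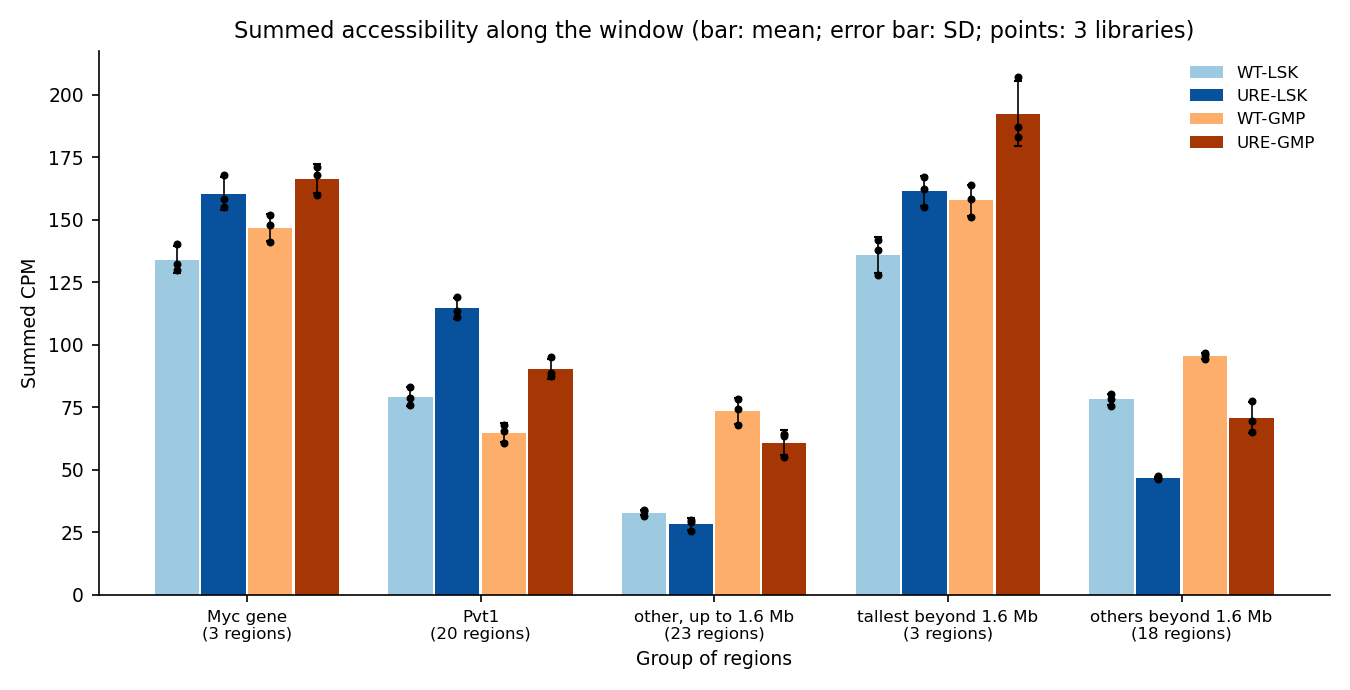
Summed CPM of 5 groups of regions in the 4 sample groups; bars are means, error bars SDs and points the 3 libraries. Among the regions beyond 1.6 Mb the sum of the 3 tallest is higher in URE and that of the other 18 is lower. Pvt1 is higher in URE, in GMP mostly through the +193 kb region, and the desert regions are higher in GMP. With loess offsets the rise of the 3 tallest is not seen in LSK, and in GMP it is seen only at +1663 kb.

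Between Myc and Pvt1 lie 5 regions, at +6, +14, +18, +27 and +47 kb, and 0 of them rose. The +18 kb region had the smallest p of all members that fell in GMP, with 2.10, 3.02 and 3.52 CPM across WT-LSK, 0.12, 0.34 and 0.23 across URE-LSK, 5.48, 5.62 and 5.26 across WT-GMP and 0.30, 0.45 and 0.17 across URE-GMP. Its log2 fold change was -3.66 ± 0.36 in LSK and -4.09 ± 0.33 in GMP (edgeR adjusted p = 3.76e-07 and 1.15e-07), and 2 cores GAGGAA stand in the 200 bases printed. The +14 kb region, mostly open in GMP, held 5.69, 7.51 and 4.75 CPM across WT-GMP and 0.67, 1.54 and 0.12 across URE-GMP, and fell by 2.89 there and by 1.78 in LSK, an LSK call that loess or GC content offsets ended, as did leaving out any of 5 LSK libraries, all but WT-LSK replicate 3. In LSK alone, +27 and +47 kb were also called lower (-1.23 and -2.27), and in GMP they had -0.89 and -0.97. The +27 kb call rested on the scaling, with 0.02 under loess offsets and -0.77 under GC content offsets. The +6 kb region was called in neither.

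Over Pvt1 the summed level was higher in URE, going from 79.2 ± 3.8 to 115 ± 4.2 CPM among LSK libraries and from 64.8 ± 3.9 to 90.4 ± 4.1 CPM among GMP libraries, without overlap. Of its 20 regions 6 rose and 4 fell in LSK (30% and 20%, against 13.6% and 23.9% of all regions), and 5 rose and 6 fell in GMP (25% and 30%, against 15.6% and 24.1%). With GC content offsets the counts were 10 and 3 in LSK and 7 and 5 in GMP. The promoter region of Pvt1 (+53 kb) was not called, with 5.43 ± 0.55, 8.57 ± 1.3, 6.87 ± 1.9 and 5.63 ± 0.23 CPM as means of WT and URE, first for LSK and then for GMP.

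The +193 kb region lies over a further annotated start site and exon of Pvt1. It held 6.64, 3.79 and 2.27 CPM across WT-LSK, 11.2, 6.78 and 12.3 across URE-LSK, 5.44, 5.54 and 4.01 across WT-GMP and 24.2, 26 and 26.2 across URE-GMP. The rise was 1.26 ± 0.30 in LSK (edgeR adjusted p = 0.00177), a call lost when WT-LSK replicate 3 was left out, and 2.35 ± 0.30 in GMP (adjusted p = 6.26e-06). Only 3 kb further, +196 kb fell from 8.87, 9.55 and 6.21 CPM to 1.48, 1.79 and 1.37 CPM for LSK, and it fell from 7.99, 10.7 and 9.15 CPM to 3.92, 4.39 and 3.51 CPM for GMP. The log2 fold changes were -2.41 ± 0.21 and -1.24 ± 0.20 (adjusted p = 1.32e-07 and 5.74e-05).

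In the 3′ part of Pvt1, 2 regions open chiefly in LSK gained there. At +302 kb the level was 0.92, 0.94 and 1.37 CPM across WT-LSK and 4.69, 8.40 and 4.96 across URE-LSK (2.46 ± 0.28, edgeR adjusted p = 1.95e-06), and in GMP it was 0.145 ± 0.0545 and 0.466 ± 0.0697 CPM (1.57 ± 0.41). At +329 kb it was 4.80, 3.26 and 3.28 CPM across WT-LSK and 12.7, 11.7 and 12.1 across URE-LSK (1.68 ± 0.22, adjusted p = 9.45e-06), while the GMP libraries of both genotypes stayed between 0.44 and 0.99 CPM and overlapped. The +94 kb region was called in GMP, at 2.22, 2.12 and 2.21 CPM in WT and 5.23, 6.51 and 5.65 in URE (1.41 ± 0.17, adjusted p = 3.97e-06), and in LSK it had 0.94 ± 0.16, under the fold required.

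Of the 18 desert regions beyond Pvt1, 5 rose and 6 fell in LSK (27.8% and 33.3%, against 13.6% and 23.9% of all regions). In GMP 5 rose and 7 fell (27.8% and 38.9%, against 15.6% and 24.1%). Over all 23 desert regions, 5 rose and 10 fell in LSK, which loess offsets turned to 10 and 5, and 3 rose without WT-LSK replicate 3 or without URE-LSK replicate 3. The +709 kb region was nearly closed except in URE-GMP, with 0 to 1 count per WT-LSK library, 2 to 8 per URE-LSK library, 2 to 13 per WT-GMP library and 133 to 215 per URE-GMP library. In GMP it went from 0.38, 0.27 and 0.05 CPM to 4.20, 3.73 and 3.22 CPM, a log2 fold change of 4.10 ± 0.46 (edgeR adjusted p = 2.24e-06). In LSK the mean was at least 1.43-fold higher in URE, taken against a floor of 3 counts per library, and the call was lost without WT-LSK replicate 3 or URE-LSK replicate 1. The +850 kb region rose from 0.71, 0.65 and 1.33 CPM to 3.97, 3.52 and 4.81 CPM in LSK (2.15 ± 0.34, adjusted p = 6.25e-05) and from 0.70 ± 0.32 to 1.88 ± 0.63 CPM in GMP. At +886 kb the level rose from 8.16, 8.22 and 4.22 CPM across WT-GMP to 15.9, 15.7 and 16.5 across URE-GMP (1.23 ± 0.28), which was 0.98, short of a call, without WT-GMP replicate 3. In LSK the calls at +886 and +1512 kb, 2 regions open chiefly in GMP, came with high values in URE-LSK replicate 3. There +886 kb held 1.495 CPM, against 0.81 and 0.47 CPM in the other URE-LSK libraries, and +1512 kb held 1.39 CPM, against 0.57 and 0.39 CPM. Without that library the log2 fold changes were 0.66 and 0.68, and neither was called. The +886 kb call also ended without WT-LSK replicate 1 or 3.

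From LSK to GMP more regions of the window rose than fell, as was also so over all regions. In WT 20 of the 67 regions rose and 13 fell (29.9% and 19.4%, against 21.0% and 16.8% of all regions). In URE 25 rose and 14 fell (37.3% and 20.9%, against 27.6% and 21.6%). The shares that fell were thus near those of all regions. The desert regions gained the most as a ratio of sums (2.23 in WT and 2.15 in URE), from 33.0 ± 1.1 to 73.5 ± 5.3 CPM in WT and from 28.3 ± 2.4 to 61.0 ± 5.0 CPM in URE, and Pvt1 lost, from 79.2 to 64.8 and from 115 to 90.4 CPM. By counts, 9 of the 23 desert regions rose and 2 fell in WT, and 10 rose and 7 fell in URE. Of the 20 Pvt1 regions 5 rose and 10 fell in WT, and 8 rose and 7 fell in URE.

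The clearest gains were at +71 kb in the first part of Pvt1 and at +886 and +1512 kb in the desert. The +71 kb region went from 0.92, 0.94 and 0.76 CPM across WT-LSK to 11.1, 11.8 and 8.62 across WT-GMP, and from 0.24, 0.75 and 0.53 CPM across URE-LSK to 13.5, 14.9 and 11.3 across URE-GMP. At +1512 kb the WT libraries went from 0.29, 0.29 and 0.32 to 7.03, 7.18 and 6.15 CPM and the URE libraries from 0.57, 0.39 and 1.39 to 12.9, 13 and 11 CPM. The log2 fold changes of these regions in WT were 3.60 ± 0.27, 4.05 ± 0.36 (+886 kb) and 4.48 ± 0.35 (edgeR adjusted p = 1.13e-07, 3.79e-07 and 1.49e-07), and in URE 4.71, 4.08 and 3.94. In the distal cluster +1618 kb had the same pattern, at 0.53 ± 0.26 and 0.46 ± 0.37 CPM in WT-LSK and URE-LSK and 7.24 ± 1.7 and 8.28 ± 2.1 CPM in WT-GMP and URE-GMP, and its genotypes overlapped in both cell types.

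In WT, losses from LSK to GMP lay mainly in Pvt1, with 10 of 13, whereas in URE 7 of 14 lay in Pvt1 and 7 in the desert. The +225 kb region went from 10.3, 8.04 and 9.89 CPM across WT-LSK to 2.01, 1.49 and 2.21 across WT-GMP, and from 18.5, 17.1 and 19.2 CPM across URE-LSK to 2.82, 2.69 and 4.0 across URE-GMP, at -2.32 ± 0.20 and -2.53 ± 0.19 (edgeR adjusted p = 3.14e-07 and 2.55e-08). The +329 kb region fell by 2.45 in WT and by 3.80 in URE, and +121 kb fell from 11.4, 12.3 and 13.3 to 4.85, 5.06 and 6.15 CPM in WT (-1.20 ± 0.15, adjusted p = 7.06e-06) and had -0.65 in URE. Of the distal regions, +1720 kb went up in WT by 0.89 ± 0.10 and in URE by 0.80 ± 0.10 (adjusted p = 2.55e-06 and 2.46e-06), short of a call, whereas +1663 kb had -0.25 ± 0.08 and -0.13 ± 0.08. 

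**Figure D5:**
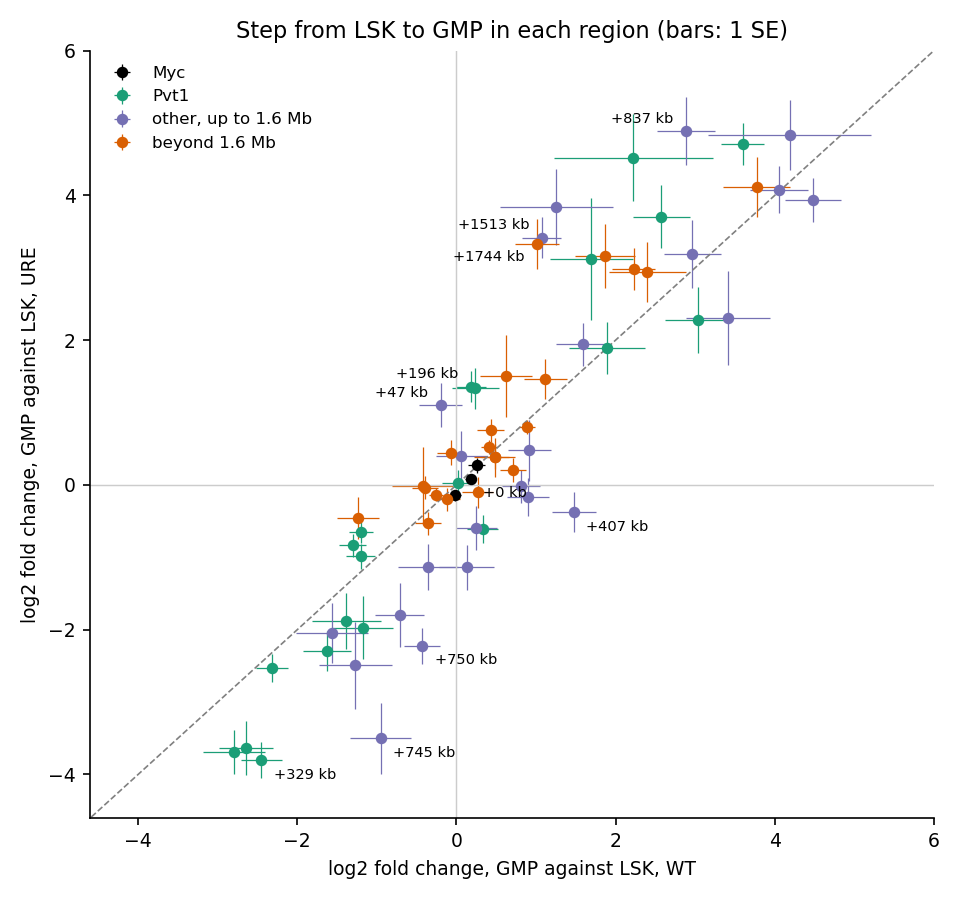
Log2 fold change from LSK to GMP in WT (horizontal) against that in URE (vertical) for the 67 regions, coloured by band, with bars of 1 SE and a dashed line of equality; the 2 axes share no library. Of the labelled regions, +1513, +1744, +837, +47 and +196 kb lie above the line, +745, +750, +329 and +407 kb below it, and the Myc regions lie near 0 on both axes.

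The genotype effect differed between the cell types in 9 regions, where the interaction was called: it was higher in GMP in 5 and lower in 4, or 7.46% and 5.97% of the members, against 8.96% and 5.03% of all regions. The count is thus near the background. With loess offsets the split was 3 and 8, and the calls at +47 and +837 kb (1.04 and 1.68) did not hold, nor did they without most single libraries. At +1513 kb the level was 2.91, 2.65 and 3.36 CPM across WT-LSK and 0.33, 0.22 and 0.68 across URE-LSK, and 6.11, 7.11 and 5.62 CPM across WT-GMP and 4.86, 4.70 and 4.14 across URE-GMP. It fell in LSK (-2.81 ± 0.29) and was not called in GMP (-0.46 ± 0.23), a difference of 2.35 ± 0.37 (edgeR adjusted p = 0.000658). The +1744 kb region, the only such region of the distal cluster, held 2.73, 3.26 and 3.44 CPM across WT-LSK, 0.40, 0.14 and 0.34 across URE-LSK, 4.77, 7.53 and 6.64 across WT-GMP and 3.08, 4.06 and 1.99 across URE-GMP. It fell by 3.37 in LSK and fell by 1.05 in GMP on the log2 scale, a difference of 2.31 ± 0.45 (adjusted p = 0.00246). The GMP call did not hold with GC content or loess offsets (-0.71 and -0.92), or without WT-GMP replicate 2 or URE-GMP replicate 3 (-0.92 and -0.83).

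The opposite order was seen at +745, +750 and +407 kb. The +750 kb region held 2.52, 2.24 and 2.69 CPM across WT-LSK, 2.19, 1.48 and 2.05 across URE-LSK, 1.97, 1.80 and 1.80 across WT-GMP and 0.45, 0.36 and 0.41 across URE-GMP, so that it fell in GMP (-2.17 ± 0.25) and not by call in LSK (-0.38 ± 0.22), with a difference of -1.79 ± 0.33 (edgeR adjusted p = 0.00195). At +745 kb the fall in GMP was from 0.67, 0.82 and 1.18 to 0.15, 0.07 and 0.07 CPM, and the difference was -2.55 ± 0.63 (adjusted p = 0.0115). At +407 kb URE was higher in LSK (1.81, 1.47 and 2.31 against 2.81, 3.71 and 3.12 CPM, 0.76 ± 0.28, not called) and lower in GMP (7.20, 5.35 and 3.41 against 2.07, 3.19 and 2.13 CPM, -1.09 ± 0.27), a difference of -1.85 ± 0.39 (adjusted p = 0.00426). The GMP call did not hold with loess or GC content offsets, at -0.97 and -0.61, or without WT-GMP replicate 1, URE-GMP replicate 1 or URE-GMP replicate 3, at -0.87, -0.98 and -0.997. Of the 22 members called in 1 cell type only, 7 had a called interaction, and the same share over all regions was not taken.

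Motif content was read from the whole sequence of each region, on both strands. The PU.1 motif GAGGAAGT stood in 7 of the 67 regions (10.4%), against 10.5% of all regions. Of these 7, 5 fell in LSK and 4 in GMP, and 0 rose in either, with median log2 fold changes of -2.27 and -1.28. In all regions holding the motif 51.9% fell in LSK and 47.2% in GMP, and in those without it 20.7% and 21.3%. One of the 7 is the +1673 kb region, which was not called. The shorter core GAGGAA, part of the full motif and of other ETS sites, stood in 39 members, of which 19 fell in LSK and 16 in GMP, while among the 28 without it 4 and 5 fell. The same contrast held over all regions, of which 33.7% with the core and 15.3% without it fell in LSK, and 33.1% and 16.1% in GMP. The RUNX motif AACCACA stood in 7 members (10.4%), against 17.3% of all regions. Of the 7, 1 rose and 1 fell in LSK, and 2 rose and 1 fell in GMP, and of all regions with the motif 19.1% fell in LSK and 20.3% in GMP. A match is a run of letters and not a measured site.

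Promoters of Myc and of genes that work with or under MYC moved little. The list of the MYC network held 13 genes: Myc itself (the +0 kb region), its paralogues Mycn and Mycl, and partners and competitors of MYC at E-box DNA. All 13 and all 21 MYC target genes on the list (ribosome biogenesis, metabolism and cell cycle genes) had a promoter region, and 0 of them were called in any of the 5 comparisons. In edgeR 8 of 13 network promoters had an adjusted p under 0.05 and were higher in URE in LSK, and in GMP 8 were higher and 1 lower. At an adjusted p under 0.05, 14 of 21 target promoters were higher in LSK and 10 in GMP. By the same rule 36.6% of all promoter regions were higher in LSK, 34.2% were higher in GMP and 17.9% were lower in GMP. With the fold threshold, 14.6% of all 22920 promoter regions were called in LSK, 16.3% in GMP, 16.3% in the step to GMP in WT, 23.4% in that step in URE and 6.17% in the interaction. The median log2 fold change in LSK was 0.26 for the network and 0.27 for the targets, and 0.21 for all promoter regions, and in GMP these medians were 0.26, 0.16 and 0.15.

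Max, the obligate partner of MYC, had 74.9, 84.1, 79.8 and 86.9 CPM as means of 3 WT and 3 URE libraries, first for LSK and then for GMP, with log2 fold changes of 0.17 in LSK and 0.12 in GMP. The promoter of Mycn, the paralogue used by stem cells, had means of 66.1, 85.9, 45.9 and 43.0 CPM in the same order and a log2 fold change from LSK to GMP of -0.997 in URE (edgeR adjusted p = 5.18e-07), on the edge of a call; in this step 1 network promoter was called with library sizes alone, with loess offsets or among regions of at least 2 CPM. Its genotype effects differed by -0.47 ± 0.15 between the cell types (adjusted p = 0.0396), under the fold required.

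Likeness to the Myc promoter over the 12 libraries was close for some other promoters. Among 12320 promoter regions of other genes with a mean of at least 10 CPM, the smallest root mean square difference from it in centred log2 CPM was 0.0284, at the promoter shared by Marf1 and Nde1, followed by Ddx54 and Rita1 (0.0304), A430046D13Rik and Myl6b (0.0310), Xpr1 (0.0311) and Hnrnph3 and Pbld2 (0.0321). The median over the candidates was 0.177, and 4704 of them lay under 0.15. Among the members the nearest were -2 kb (0.122), +2 kb (0.124), +1736 kb (0.177) and +1616 kb (0.200). Next came +1673 and +1663 kb at 0.205 and 0.216, farther than the median candidate.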

How the data were processed

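ATAC-seq of 12 libraries was analysed, 3 for each genotype (WT or URE) in each cell type (LSK or GMP), as their GEO labels give it. The deposited table holds raw read counts per region, which the authors made by aligning with bowtie2 to GRCm38, removing duplicates and reads on non-primary chromosomes, calling peaks with Genrich in each group and merging them with bedtools, and the submitters' processing notes name featureCounts. The unit counted, fragment or read end, is not given in the sources used here, and region starts were taken as 0-based and printed 1-based. Since peaks were called on the same libraries, a region open in 1 group only could enter the table through that group. Counts were tested in R 4.3.3 with edgeR 4.0.16 (quasi-likelihood test, TMM, filterByExpr, which removed 0 regions), with 1 coefficient per group over all 12 libraries and Benjamini-Hochberg adjustment over 121336 regions. Regions were called at an adjusted p under 0.05 and an absolute log2 fold change over 1. Levels are CPM on TMM-scaled library sizes, and floors of 3 counts cover counting error only. Genes came from GENCODE M21. Named regions were those at the Myc start site, the 5 highest, the 3 called with the smallest p per contrast and direction, and every distal region called between genotypes, and others are named as members of a small count. Members and lists were chosen with earlier results of these data known. The genotype contrasts, cell type steps and interaction share libraries. Alternatives were DESeq2 1.42.0, other scalings, filters and thresholds, a replicate block and leaving out each library.

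Libraries with the same replicate number were compared by how their departures from the group means correlated, as a check of pairing. The correlations were 0.117 to 0.422 between the GMP groups, 0.223 to 0.264 between the WT groups and 0.112 to 0.319 between the URE groups, but -0.109 to 0.1495 between the LSK groups. The highest correlation with a library of another number was lower throughout between the WT groups (-0.1255 to -0.0436) and the URE groups (-0.0688 to 0.0980). Between the GMP groups it was -0.1484 to 0.1797 and exceeded that of replicate 1. Between the LSK groups it was 0.0309 to 0.1384 and exceeded that of replicate 3. The labels do not say that a number marks 1 mouse. With the replicate block 35 members were called in LSK, 32 in GMP, 32 and 39 in the steps and 11 in the interaction.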

Additional observations from a re-analysis of the deposited data

Results flagged for a closer look

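In 9 regions the genotype effect (log2 fold change of URE against WT) in GMP minus that in LSK passed the edgeR test of the difference itself, 7.46% of the members upward and 5.97% downward, against 8.96% and 5.03% of all regions. It was 1.3002 at +47 kb, 1.1734 at +196 kb, 2.0055 at +837 kb, 2.3464 at +1513 kb and 2.3148 at +1744 kb, where the fall in LSK was the deeper one. It was -1.3498 at +329 kb, where the rise was in LSK, and -1.8519 at +407 kb, -2.5484 at +745 kb and -1.7900 at +750 kb, where the fall was in GMP. The difference at +329 kb no longer passed without WT-LSK replicate 2 or 3 (-1.2157 and -1.2029) or WT-GMP replicate 3 (-0.9011). The difference at +47 kb was past the threshold only with every LSK library and both URE-GMP replicates 1 and 2, and its adjusted p was 0.0515 to 0.1 without any 1 of these. At +837 kb the same held for every library but WT-LSK replicate 2, URE-LSK replicate 3, WT-GMP replicate 3 and URE-GMP replicate 3 (0.0619 to 0.138). Loess offsets ended both (1.0431 and 1.6763). Mpo and Ctsg were higher in URE-GMP and Csf1r and Ms4a3 lower, and the part of the make-up of the sorted cells was not tested.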

How the results depend on the processing

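Over 103 tested values, settings other than leaving out a library left 1320 results on the same side of the threshold, with 53 weaker, 11 stronger and 15 reversed. Leaving out 1 library gave 31 to 36 called members in LSK, 31 to 35 in GMP, 27 to 34 in the WT step, 34 to 40 in the URE step and 7 to 11 in the interaction, and 0 to 1 MYC network promoters in the URE step. Among regions of at least 2 CPM, a construction that tests fewer regions, 15, 13, 17, 15 and 5 members were called. A test against the fold threshold (glmTreat) gave 21 in LSK, 18 in the WT step and 2 in the interaction, and an adjusted p under 0.01 gave 4 in the interaction. With no fold threshold 8, 9, 4, 5 and 1 network promoters and 14, 10, 10, 8 and 1 target promoters passed, and 1 network promoter was called in the URE step with library sizes alone, with loess offsets and from 2 CPM. The cores of the PU.1 and RUNX motifs stood in 39 and 21 members. With library sizes alone the sums were 143.118 CPM at Myc and 84.5621 at Pvt1 in WT-LSK, 155.944 and 84.7522 in URE-GMP, 35.1905 in the desert of WT-LSK, and 228.586 and 246.931 in the distal cluster of WT-LSK and URE-GMP. With a later start of the distal cluster, its sums were 181.967, 192.159, 204.826 and 232.365.

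Among the named regions directions turned only for values that were not called, and the cause was not tested. Of the others, the called fall at +27 kb in LSK became 0.0151 with loess offsets. Between genotypes, loess offsets gave -0.0575 and -0.0846 at +0 kb (LSK, GMP), -0.1601 and -0.0185 at +1673 kb, -0.0892 at +2 kb and -0.0380 at +1720 kb in GMP. Library sizes alone gave -0.0480 at +1673 kb in LSK and -0.0235 at +2 kb in GMP, and TMM on promoter regions -0.0879 and -0.0304. Leaving out 1 library, +1673 kb in LSK ran from -0.0599 (without WT-LSK replicate 1) to 0.1305 and was -0.0045 without URE-LSK replicate 3. The WT step at +2 kb was 0.0238 with RLE size factors, 0.1041 with GC content offsets, 0.1047 with these and the replicate block, 0.0043 with only the groups compared and 0.0250 with DESeq2. The interaction at +0 kb ran from -0.1102 to 0.0222 (without WT-GMP replicate 3) and was 0.0015 without WT-LSK replicate 3. The replicate block ended the call of the WT step at +1744 kb (0.9939) and that of the interaction at +837 kb (1.9989), and it added interactions at +6 kb (-1.0947), +71 kb (1.1409) and +1021 kb (-1.3452) and 1 region in LSK. With 3 libraries per group, depth limits regions near the floor of 3 counts, such as +365, +366, +709 and +1599 kb.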
